A study of Mus musculus with 24 samples.

Results

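The miR-183 cluster, which holds miR-183, miR-96 and miR-182, was followed here as its 3 mature 5p miRNAs, mmu-miR-183-5p, mmu-miR-96-5p and mmu-miR-182-5p, which were chosen by name among the 1881 mouse miRNAs on the array. Their levels were read from 24 one-color miRNA arrays of C57BL/6J mice, with 1 array for each of 8 tissues (retina, RPE/choroid, sclera, lens, cornea, iris, SCN and LGN) in each of 3 lens groups. The groups were normal eyes without a lens (labeled Control), eyes with a 0 D lens (labeled 0D) and eyes with lens-induced myopia, in which a −30 D lens was worn on the right eye for 3 weeks from 3 weeks of age. For the ocular tissues of the normal and the −30 D eyes, RNA from 3 male mice was pooled on each array, and the sources used here do not describe the wear of the 0 D lens or the dissection of the SCN and LGN. The tissue labeled choroid is called RPE/choroid, as the retinal pigment epithelium was taken with it.

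The 3 miRNAs are cut from neighboring hairpins of a common primary transcript and are known as a sensory cluster, since photoreceptors of the retina and hair cells of the inner ear hold them at high levels. In the mouse retina, the levels of mature cluster miRNAs follow light and fall in darkness, and loss of the cluster leads to retinal degeneration. An miRNA finds its targets mainly through its seed, bases 2 to 8 from the 5′ end, and members of this cluster carry seeds that are alike but not equal.

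The mature sequences from RefSeq are printed 5′ to 3′ with the seed in capitals, because the likeness of the seeds and of the probes' targets is what links and separates the members.
mmu-miR-183-5p: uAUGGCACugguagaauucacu
mmu-miR-96-5p: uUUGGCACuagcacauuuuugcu
mmu-miR-182-5p: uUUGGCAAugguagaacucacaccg
On the GRCm38.p6 build, they lie on the minus strand of chromosome 6, mmu-miR-183-5p at chr6:30169711-30169732, mmu-miR-96-5p at chr6:30169506-30169528 and mmu-miR-182-5p at chr6:30165962-30165986. The 3 hairpins lie within the long noncoding RNA gene Mirc35hg, and the nearest protein-coding genes on either side are Nrf1 and Ube2h. The hairpins of miR-183 and miR-96 are 116 bases apart, and those of miR-96 and miR-182 are 3453 bases apart. The seeds of mmu-miR-183-5p and mmu-miR-96-5p differ at 1 of 7 positions, as do those of mmu-miR-96-5p and mmu-miR-182-5p, while the seeds of mmu-miR-183-5p and mmu-miR-182-5p differ at 2. Over the whole length, compared position by position from the 5′ end, the nearest pair was mmu-miR-183-5p and mmu-miR-182-5p, which are the same at 18 of 22 positions (81.8%). mmu-miR-183-5p and mmu-miR-96-5p are the same at 13 of 22 positions, and mmu-miR-96-5p and mmu-miR-182-5p at 12 of 23. Of the 1608 array miRNAs with a sequence, none other than the member itself carried a member's seed. mmu-miR-1271-5p, which is not on the array, carries the seed of mmu-miR-96-5p.

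The signal of an miRNA was the sum of its background-subtracted probe signals that exceeded 3 probe errors, brought to a common scale by the 75th percentile of the 79 miRNAs that every array detected. An miRNA without any such probe was counted as not detected, with an upper limit set by 3 errors of its probes or by the lowest detected signal of that array, whichever was higher. Between 129 and 249 miRNAs (6.86% to 13.2%) were detected per array, and the 3 arrays of a tissue correlated at 0.973 or above. No spot of a member was saturated. The ± values below are the probe error within 1 array unless an SD is named. The 8 tissues of a lens group shared a slide and no slide held another lens group. An effect of the slide cannot be told apart from one of the lens group, and the 3 arrays of a tissue are also its 3 lens groups. Because probes differ in brightness, no member's signal was set against another's on the same array, and only the change of such a ratio between tissues was read.

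Retina held the highest signal of each member. mmu-miR-183-5p was at 9710 ± 866, 8510 ± 743 and 8906 ± 796 on the normal, 0 D and lens-induced retina arrays, a mean of 9042 ± 611 (SD, n = 3). mmu-miR-96-5p was at 5739 ± 419, 6105 ± 447 and 5009 ± 366 on the same arrays, a mean of 5618 ± 558 (SD, n = 3). mmu-miR-182-5p was at 721 ± 68.7, 621 ± 59.1 and 583 ± 55.5, a mean of 641 ± 71.5 (SD, n = 3). For each member the 3 retina arrays lay close together, with a highest over lowest of 1.14, 1.22 and 1.24, and stood apart from every array of another tissue.

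**Figure D1:**
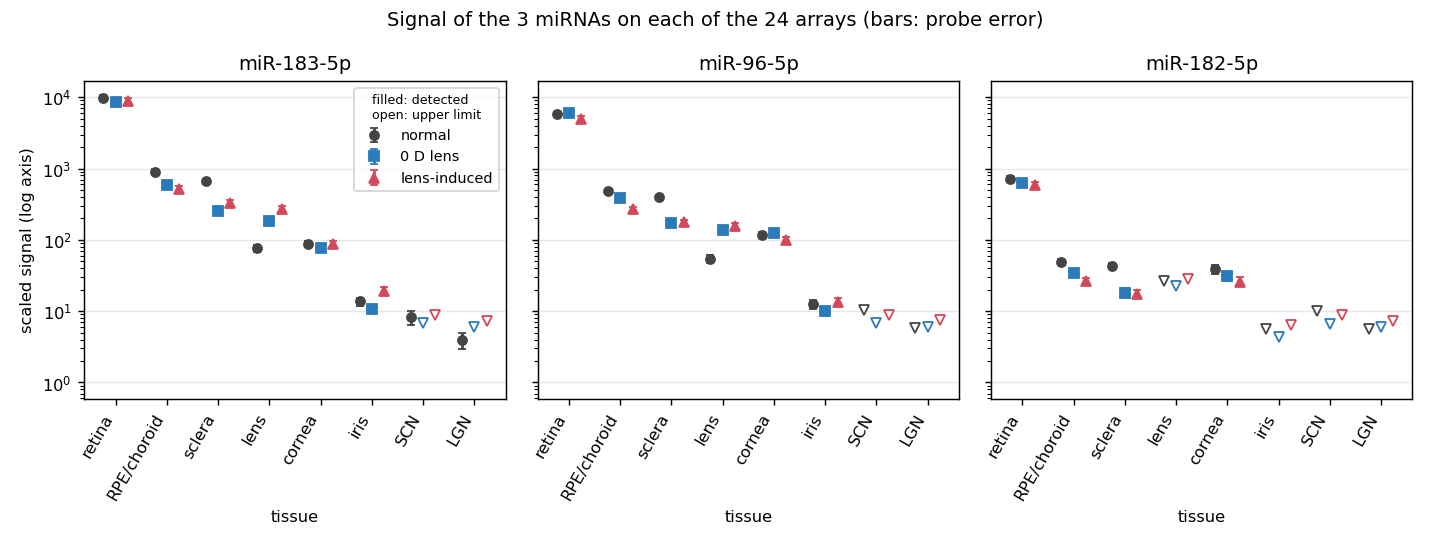
Scaled signal (log axis) of each miRNA on the 24 arrays by tissue, with the probe error as bars and a point for each lens group. Open triangles mark the upper limit where the miRNA was not detected. The retina arrays are the highest in each panel, at 8510 to 9710, 5009 to 6105 and 583 to 721.

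By geometric mean, the RPE/choroid came next for each member, followed by the sclera for mmu-miR-183-5p and mmu-miR-96-5p and by the cornea for mmu-miR-182-5p. mmu-miR-183-5p was at 900.0, 588 and 520.0 on the normal, 0 D and lens-induced arrays of the RPE/choroid, and at 658, 253 and 327 on those of the sclera. mmu-miR-96-5p was at 487, 386 and 267 in the RPE/choroid and at 393, 170.3 and 179 in the sclera. mmu-miR-182-5p was at 49.0, 34.1 and 26.4 in the RPE/choroid and at 43.2, 18.3 and 17.5 in the sclera. On the normal, 0 D and lens-induced slides alike, the RPE/choroid array was above the sclera array for each member, but the ranges of the 2 tissues over their arrays overlapped.

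The lens, cornea and iris did not stand in a common order for the members. mmu-miR-183-5p was at 76.9, 181.8 and 268 in the lens on the normal, 0 D and lens-induced arrays, at 88.1, 76.1 and 88.0 in the cornea, and at 13.7, 10.6 and 19.3 in the iris. mmu-miR-96-5p was at 54.4, 136 and 158 in the lens, at 118, 124 and 100.0 in the cornea, and at 12.5, 9.92 and 13.4 in the iris. mmu-miR-182-5p was at 38.4, 30.9 and 26.1 in the cornea and was not detected on any array of the lens or iris. For mmu-miR-183-5p the ranges of lens and cornea overlapped, as did those of sclera and lens, while the iris lay below all other ocular tissues. For mmu-miR-96-5p the sclera lay above the cornea without overlap, the cornea and lens overlapped, and the iris was again the lowest. For mmu-miR-182-5p the cornea overlapped with both the RPE/choroid and the sclera, and its geometric mean was 1.31-fold that of the sclera. The upper limits of mmu-miR-182-5p in the lens were 3.60% to 4.79% of its retina signal. They lay above the percentage that either other member had there on all 3 slides. These limits add 3 errors of both probes, while detection needed only 1 probe above 3 errors. They therefore do not show whether a level like that of the other members was detectable. The brighter probe of mmu-miR-182-5p was at −0.46, 2.67 and 2.48 errors on the normal, 0 D and lens-induced lens arrays.

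The brain regions were nearly without signal. mmu-miR-183-5p was detected on the normal array of the SCN at 8.21 ± 1.86 and on the normal array of the LGN at 3.97 ± 1.03, and on no other array of these regions. mmu-miR-96-5p and mmu-miR-182-5p were not detected on any of the 6 arrays. The upper limits of mmu-miR-183-5p on its undetected arrays, 6.74 and 8.92 in the SCN and 6.03 and 7.39 in the LGN, do not separate these arrays from the detected ones. Since each member was at or under the limit of detection in both regions, no fold between SCN and LGN can be given. Neuronal miRNAs were present in these samples, as all 7 of the list of neuronal miRNAs (miR-124-3p, both arms of miR-9, miR-128-3p, miR-129-5p, miR-137-3p and miR-138-5p) were detected on all 3 arrays of each region, with a summed signal of 3826 to 4187 in the SCN and 3987 to 4641 in the LGN. Retina had 6 of the 7 on all arrays, with a summed signal of 11396 to 12730.

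The retina was compared with each other tissue in a limma fit over all 24 arrays with tissue and lens group as terms, in which signals under a common floor of 9.93 were set to it. Against the cornea, all 3 members were higher in retina, while 33.7% of the 306 miRNAs tested were called higher. Geometric means differed 108-fold for mmu-miR-183-5p, 49.4-fold for mmu-miR-96-5p and 20.3-fold for mmu-miR-182-5p, with adjusted p of 4.8e-11, 2.5e-10 and 1.1e-11 in limma. Against the RPE/choroid, where 29.4% of miRNAs were called higher in retina, the folds were 13.9, 15.2 and 18.1, with adjusted p of 1.5e-07, 4.3e-08 and 2.8e-11 in limma. Against the sclera, where 33.7% were called higher, the folds were 23.8, 24.5 and 26.6, with adjusted p of 1.1e-08, 4.5e-09 and 5.4e-12. The members' folds thus lay within a narrow range in the posterior tissues and apart from each other in the cornea.

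Against the lens, where 35.6% of miRNAs were called higher in retina, mmu-miR-183-5p was 58.1-fold and mmu-miR-96-5p 53.1-fold higher in retina, with both called (adjusted p of 2.4e-10 and 1.4e-10 in limma). mmu-miR-182-5p was at least 25.0-fold higher there. The fit called it as well (adjusted p = 1.1e-13 in limma), but with the 3 lens arrays at the floor of 9.93, below their upper limits of 22.4 to 27.9, so that this p does not belong to the bound. Against the iris, with 30.1% called higher, the folds were 641 and 472, and at least 118 for mmu-miR-182-5p (adjusted p of 9.0e-13, 7.5e-13 and 2.0e-13 in limma). Against the SCN (19.9% called higher), the lower bounds were 1143-fold, 655-fold and 76.6-fold, and against the LGN (23.5% called higher) 1609-fold, 875-fold and 102-fold for mmu-miR-183-5p, mmu-miR-96-5p and mmu-miR-182-5p, with each member called in both (adjusted p of 8.5e-13 or lower in limma). A lower bound sets undetected arrays to their upper limit, and for mmu-miR-183-5p 1 of 3 arrays in each region was a measured value. The p-values measure the spread between arrays of different lens groups and slides, and not that between animals. The fit shares 1 estimate of spread per miRNA over the 24 arrays, and arrays at the floor add no spread of their own. These are the SCN and LGN arrays for each member, and also the iris and lens arrays for mmu-miR-182-5p. Its SE against the cornea was 0.21, against 0.37 for mmu-miR-183-5p and 0.35 for mmu-miR-96-5p. Its smaller p-values are thus not to be read as a tighter measurement.

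The 3p arms of the same hairpins were at or under the limit of detection outside the retina. mmu-miR-183-3p (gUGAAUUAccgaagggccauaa, seed in capitals) was detected on the retina arrays at 55.2, 52.6 and 47.2 and on 1 other array, that of the normal RPE/choroid, at 2.74 ± 0.651. The upper limits of mmu-miR-183-3p were 33.5% to 43.9% of the retina array of the same lens group in the cornea. In the lens they were 41.7% to 58.1%, and in the sclera 12.8% to 21.4%. They lie above the percentages of mmu-miR-183-5p in these tissues, so they do not show whether the 2 arms differ there. mmu-miR-96-3p and mmu-miR-182-3p were not detected on any of the 24 arrays.

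To place the members beside other miRNAs of the retina, each signal was also expressed as a percentage of the retina array of the same lens group. In the RPE/choroid, mmu-miR-183-5p had 9.27% ± 1.17, 6.90% ± 0.858 and 5.84% ± 0.742 on the normal, 0 D and lens-induced arrays. mmu-miR-96-5p had 8.48%, 6.32% and 5.33% there, and mmu-miR-182-5p 6.80%, 5.50% and 4.53%. miR-124-3p, which neurons in general hold at high levels, had 8.63%, 6.94% and 5.59%. The members and miR-124-3p were thus highest on the normal and lowest on the lens-induced array. Of the other 4 miRNAs of the neuronal list detected there, miR-129-5p had this order too (5.94%, 5.22% and 4.74%), while miR-9-3p (24.1%, 17.7% and 22.2%), miR-128-3p (20.98%, 11.98% and 15.0%) and miR-9-5p (14.3%, 9.66% and 11.2%) were lowest on the 0 D array.

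In the sclera, the normal array was again the highest. The members were lowest on the 0 D array there, and miR-124-3p on the lens-induced one. mmu-miR-183-5p had 6.78%, 2.97% and 3.67% of retina on the normal, 0 D and lens-induced arrays, mmu-miR-96-5p 6.85%, 2.79% and 3.57%, mmu-miR-182-5p 5.99%, 2.94% and 3.01%, and miR-124-3p 5.15%, 3.32% and 3.15%. In the lens, mmu-miR-183-5p had 0.792%, 2.14% and 3.01%, mmu-miR-96-5p 0.948%, 2.22% and 3.16%, and miR-124-3p 0.920%, 2.96% and 3.83%. In these tissues the normal array was the highest (sclera) or the lowest (lens) for each of these miRNAs with a value there. Other neuronal miRNAs differed less between the sclera arrays, with miR-9-3p at 13.9%, 12.9% and 13.6% and miR-129-5p at 2.28%, 1.98% and 2.27%. Of the neuronal list, 5 of 7 miRNAs were found on each RPE/choroid array (summed signal of 767 to 1225). In the sclera it was 3 of 7 (436 to 715), and in the lens 1 of 7 (120 to 390.3). miR-9-5p, miR-137-3p and miR-138-5p were not detected in sclera or lens. The upper limits of miR-9-5p were 13.0% to 19.7% of retina in the sclera and 32.7% to 53.2% in the lens. Those of miR-138-5p were above its retina signal, and miR-137-3p was not detected in retina. These absences thus do not show a lower percentage than that of the members. Whether retinal RNA carried over in dissection had a part in the levels of the members in these tissues was not tested. In bulk tissue, fewer cells with an miRNA and less of it in each cell cannot be told apart.

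**Figure D2:**
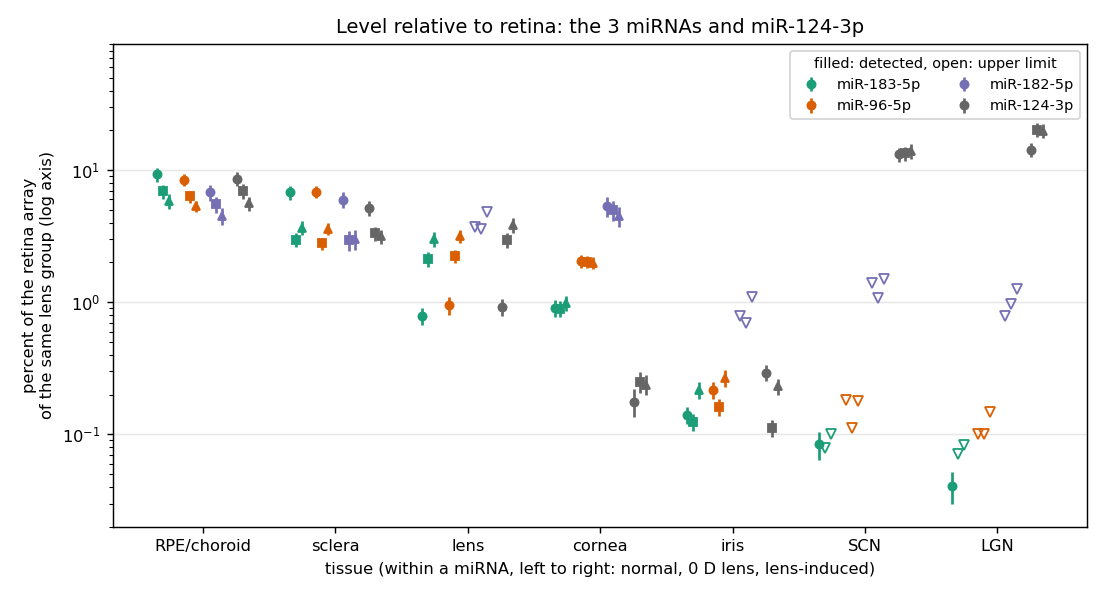
Signal as a percentage of the retina array of the same lens group (log axis) for the 3 miRNAs and for the neuronal miR-124-3p in the other 7 tissues, with propagated probe errors as bars and open triangles as upper limits. The 4 miRNAs lie together in RPE/choroid and sclera, are spread from 0.177% to 5.33% in the cornea, and part again in SCN and LGN, where miR-124-3p is at 13.1% to 20.2% and mmu-miR-183-5p at 0.1001% or under.

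Cornea was the tissue in which the members parted. mmu-miR-183-5p had 0.907% ± 0.129, 0.894% ± 0.125 and 0.988% ± 0.132 of the retina signal on the normal, 0 D and lens-induced arrays. mmu-miR-96-5p had 2.05% ± 0.235, 2.03% ± 0.223 and 1.996% ± 0.2196, and mmu-miR-182-5p 5.33% ± 0.928, 4.99% ± 0.861 and 4.47% ± 0.767. The 3 sets of values did not overlap, whereas miR-124-3p lay below all of them at 0.177%, 0.251% and 0.238%. The single probes kept this order where they were above 3 errors. The probe of mmu-miR-183-5p detected on 20 arrays had a median of 1.03% of its retina signal and at most 1.04% in the cornea, both probes of mmu-miR-96-5p lay between 1.97% and 2.06%, and the probe of mmu-miR-182-5p detected on 12 arrays had 4.70% to 5.61%. The other probe of mmu-miR-183-5p was above 3 errors on 1 cornea array, at 0.894%, and the other probe of mmu-miR-182-5p in retina alone. In the iris, the lowest of the ocular tissues, mmu-miR-183-5p had 0.141%, 0.124% and 0.217% of the retina signal and mmu-miR-96-5p 0.218%, 0.163% and 0.268% on the normal, 0 D and lens-induced arrays. Both lay within the range of miR-124-3p, which was at 0.293%, 0.111% and 0.230%.

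Ratios between members on the same array, which do not depend on the scaling, were compared between tissues with an exact permutation test that moved the tissue label within each lens group. For mmu-miR-96-5p over mmu-miR-183-5p, retina differed from the other 5 ocular tissues by −0.31 on the log2 scale over 18 arrays (exact two-sided p = 0.319, adjusted p = 0.594 over 3 ratios). For mmu-miR-182-5p, which was not detected in iris and lens, the test used the 12 arrays of cornea, retina, RPE/choroid and sclera. Its ratio to mmu-miR-183-5p differed in retina by −0.62 (exact p = 0.578, adjusted p = 0.594), and its ratio to mmu-miR-96-5p by −0.30 (exact p = 0.594, adjusted p = 0.594). The ratios of the retina were thus not shown to differ from the pooled ratios of the other tissues. The pool holds the cornea, whose mean log2 ratio of mmu-miR-182-5p to mmu-miR-183-5p was −1.42. That of retina was −3.82, of RPE/choroid −4.20 and of sclera −3.98. The test therefore cannot decide whether retina differs from a single tissue. On each slide, retina lay above the RPE/choroid in all 3 ratios.

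The same test was then run with each other ocular tissue in the place of retina, 11 tests that were added after the values had been seen. mmu-miR-96-5p over mmu-miR-183-5p was 2.06-fold higher in the cornea than in the other 5 tissues, with exact p = 0.00463, the smallest that 216 arrangements allow, and adjusted p = 0.0509 over the 11 tests. mmu-miR-182-5p over mmu-miR-183-5p was 6.00-fold higher in the cornea and mmu-miR-182-5p over mmu-miR-96-5p 2.65-fold higher, each with exact p = 0.0156, the smallest that 64 arrangements allow, and adjusted p = 0.0573. The 3 cornea arrays held the highest 3 values of each ratio, and none of the 3 tests passed 0.05 after adjustment. Each exact p was already the smallest possible, so these 3 tests could not pass over 11 tests unless others also had small p-values. The adjusted p thus does not weigh the size of the cornea difference. The adjusted p of the other 8 tests was 0.242 or higher.

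Relative to the retina array of the same slide, mmu-miR-182-5p over mmu-miR-183-5p was 5.87-fold, 5.57-fold and 4.53-fold in the cornea on the normal, 0 D and lens-induced slides, against 0.734 to 0.797 in the RPE/choroid and 0.819 to 0.991 in the sclera. mmu-miR-96-5p over mmu-miR-183-5p was 2.26-fold, 2.27-fold and 2.02-fold in the cornea, 1.24-fold to 1.55-fold in the iris and 1.04-fold to 1.20-fold in the lens, and 0.913 to 0.915 in the RPE/choroid and 0.940 to 1.01 in the sclera. Of the list of surface epithelium markers, all 8 (miR-205-5p, miR-203-3p, miR-184-3p, miR-141-3p, miR-429-3p and 3 of the miR-200 family) were detected on all cornea arrays with a summed signal of 32585 to 39797. In the iris, 7 of the 8 were detected on all arrays with a summed signal of 551 to 605. In the lens, miR-184-3p alone was detected, at 11130 to 16390, as it was in retina (32.6 to 70.5), RPE/choroid (99.7 to 147) and sclera (111 to 275). The sum of the lens thus came from miR-184-3p alone and that of the iris from 7 markers, so the sums do not rank these tissues by epithelium. The part of the epithelium in the ratios was not tested.

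**Figure D3:**
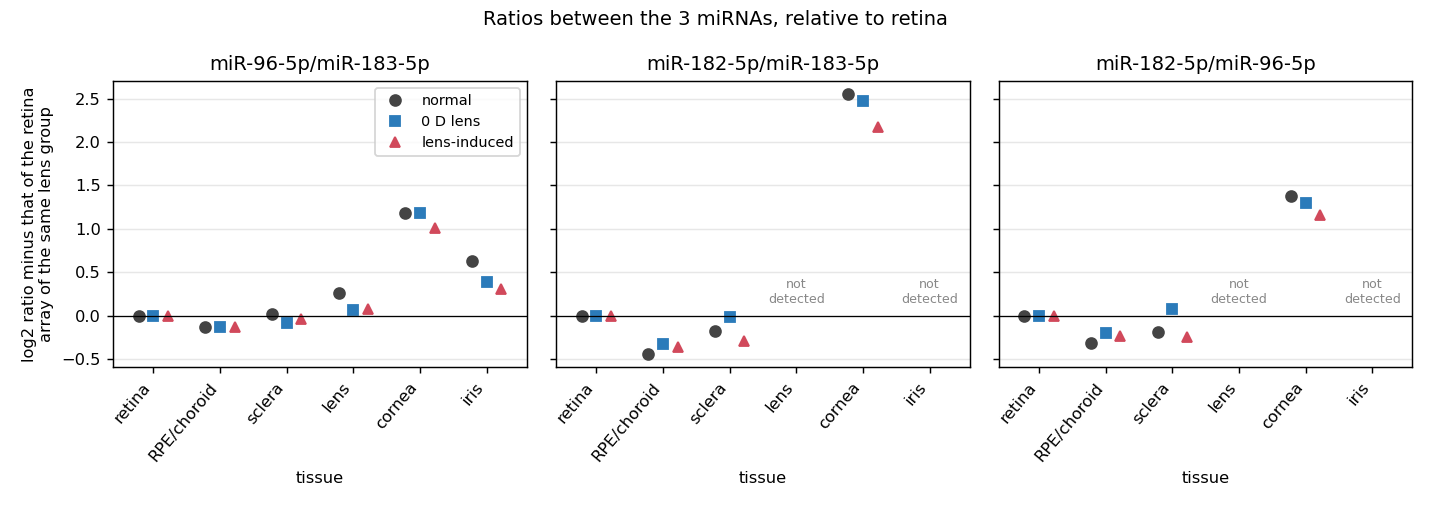
Log2 ratio between 2 of the 3 miRNAs on each array minus that of the retina array of the same lens group, by ocular tissue, with a point for each lens group and retina at 0 by construction. The cornea arrays lie at 1.01 to 1.18, 2.18 to 2.55 and 1.16 to 1.38 in the 3 panels, above all arrays of the other tissues with a value.

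Over the 24 arrays, with undetected values at the common floor, mmu-miR-183-5p and mmu-miR-96-5p were the nearest to each other of all 196 miRNAs detected on at least 12 arrays, with a Pearson correlation of log2 signals of 0.994. mmu-miR-182-5p followed for both, at 0.871 with mmu-miR-183-5p and 0.898 with mmu-miR-96-5p, and the next for both was mmu-miR-423-5p, at 0.819 and 0.825. For mmu-miR-182-5p the nearest were mmu-miR-1839-3p at 0.922, mmu-miR-872-5p at 0.903 and mmu-miR-96-5p. These correlations describe arrays that share tissues and slides, and the floored values of mmu-miR-182-5p on 12 arrays enter them.

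miR-204-5p and miR-211-5p, which like the cluster are known to follow light in the mouse retina and are abundant in pigmented cells, were not highest in retina on the scaled signals. miR-204-5p was at 605, 668 and 526 in retina and at 1198, 1349 and 1247 in the lens on the normal, 0 D and lens-induced arrays, and its log2 difference between retina and lens was −1.08 ± 0.19 (SE, adjusted p = 7.2e-05 in limma). miR-211-5p was at 162, 190.2 and 144 in retina and at 782, 906 and 772 in the iris, a log2 difference between retina and iris of −2.32 ± 0.33 (SE, adjusted p = 9.6e-06 in limma). On the scaled signals, both were higher in another ocular tissue than in retina, with no overlap between the arrays. The difference of miR-211-5p was −2.28 without scaling and −2.70 with quantile normalization, while that of miR-204-5p was −0.97 with quantile normalization but turned to 1.05 without scaling.

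The lens groups were compared over the 18 arrays of the 6 ocular tissues, with the tissue as a block, which asks for a change common to the tissues. Between lens-induced and normal arrays, limma called 0 of 268 miRNAs (0%), with 27 at an unadjusted p under 0.05. None of the members was called. The log2 difference was 0.06 ± 0.31 (SE) for mmu-miR-183-5p (adjusted p = 0.980), with a 95% confidence interval of −0.61 to 0.73, and −0.13 ± 0.29 for mmu-miR-96-5p (adjusted p = 0.879), with an interval of −0.76 to 0.50. mmu-miR-182-5p had −0.51 ± 0.16 (unadjusted p = 0.00785, adjusted p = 0.2503 in limma), and was lower on the lens-induced array in 4 of the 4 tissues that detected it. In iris and lens it stood at the floor on all arrays, which added no difference to this mean and no spread of their own to its SE.

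Between 0 D and normal arrays, limma also called 0 of 268 (0%), with 32 at an unadjusted p under 0.05, and the log2 differences were −0.25 ± 0.31 (SE) for mmu-miR-183-5p, −0.07 ± 0.29 for mmu-miR-96-5p and −0.38 ± 0.16 for mmu-miR-182-5p (adjusted p of 0.729, 0.979 and 0.332). mmu-miR-182-5p was lower on the 0 D array in 4 of 4 tissues. Both comparisons use the same normal arrays. Between lens-induced and 0 D arrays, 2 of 268 miRNAs were called (0.746%), neither of them a member, and the members had 0.32 ± 0.31, −0.07 ± 0.29 and −0.13 ± 0.16 (adjusted p of 0.585, 0.922 and 0.684).

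Within a tissue each lens group has 1 array, so that a ratio has no test and its ± is the propagated probe error. Of the 16 pairs of a member and an ocular tissue detected on both arrays, 5 were past 2-fold between lens-induced and normal arrays, 2 higher and 3 lower, while 6.05% of the 1107 pairs over all miRNAs were. The same 5 pairs were past 2-fold between 0 D and normal arrays, where 5.15% of 1126 pairs were. They come from the 3 arrays of the lens and the 3 of the sclera and are not independent. Between lens-induced and 0 D arrays, 0 of the 16 pairs were past 2-fold.

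In the lens, the signals given above correspond to log2 ratios to the normal array of 1.24 ± 0.22 (0 D) and 1.80 ± 0.22 (lens-induced) for mmu-miR-183-5p, and of 1.32 ± 0.23 and 1.54 ± 0.23 for mmu-miR-96-5p. miR-124-3p had 1.56 ± 0.21 and 1.89 ± 0.21 there. In the sclera, the ratios were −1.38 ± 0.18 and −1.01 ± 0.19 for mmu-miR-183-5p, −1.21 ± 0.15 and −1.13 ± 0.15 for mmu-miR-96-5p and −1.24 ± 0.26 and −1.30 ± 0.25 for mmu-miR-182-5p, with −0.76 ± 0.19 and −0.87 ± 0.19 for miR-124-3p. mmu-miR-182-5p was not detected in the lens and has no ratio there. The normal array thus stood apart from both lens arrays in opposite directions in the 2 tissues for mmu-miR-183-5p, mmu-miR-96-5p and miR-124-3p. The rest of the neuronal list was not shown to move in this way. In the sclera, miR-9-3p had 0.02 ± 0.16 (0 D) and −0.12 ± 0.17 (lens-induced), miR-129-5p −0.53 ± 0.53 and −0.24 ± 0.44, and miR-128-3p, not detected on the 0 D array, −0.38 ± 0.48 with the −30 D lens. In the lens, miR-128-3p had 0.08 ± 0.59 with the 0 D lens and was not detected on the lens-induced array, and the other 5 were not detected. These ratios were within 1 error of 0. The part of neuronal RNA in the ratios of the members was not tested. Normexp background correction was run with an offset of 50, which is added to each spot signal and narrows ratios of low signals. With it, the lens ratios fell to 0.55 and 0.99 for mmu-miR-183-5p and to 0.52 and 0.73 for mmu-miR-96-5p. The sclera ratios of mmu-miR-182-5p fell to −0.38 and −0.48, and none of these ratios was past 2-fold. mmu-miR-96-5p in the sclera was then at −0.99 with either lens. The part of the offset in these changes was not tested. The lens-induced ratio of mmu-miR-183-5p in the sclera, close to 2-fold, was −0.95 with normexp, −0.84 with quantile normalization and −0.998 from the brightest probe alone, and that of mmu-miR-96-5p was −0.89 with quantile normalization.

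The RPE/choroid ratios were under 2-fold but beyond 2 errors in each member, at −0.62 ± 0.18 (0 D) and −0.79 ± 0.18 (lens-induced) for mmu-miR-183-5p, −0.34 ± 0.15 and −0.87 ± 0.15 for mmu-miR-96-5p and −0.52 ± 0.22 and −0.89 ± 0.22 for mmu-miR-182-5p. In the neuronal list, miR-124-3p had −0.44 ± 0.19 and −0.79 ± 0.19 on these arrays, miR-128-3p −0.84 ± 0.32 and −0.79 ± 0.29, miR-129-5p −0.51 ± 0.26 and −0.56 ± 0.25, miR-9-3p −0.32 ± 0.16 and −0.21 ± 0.16, and miR-9-5p −0.28 ± 0.46 and −0.45 ± 0.45. All were thus below the normal array, those of both miR-9 arms, and of miR-129-5p with the 0 D lens, within 2 errors. In the retina, where the members are highest, the ratios ran from −0.22 to 0.09 with the 0 D lens and from −0.31 to −0.12 with the −30 D lens, all within 2 errors. The cornea ratios ran from −0.31 to 0.07 and from −0.56 to 0.00, also within 2 errors. In the iris, mmu-miR-183-5p had −0.37 ± 0.25 and 0.50 ± 0.24 and mmu-miR-96-5p −0.33 ± 0.26 and 0.11 ± 0.27.

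**Figure D4:**
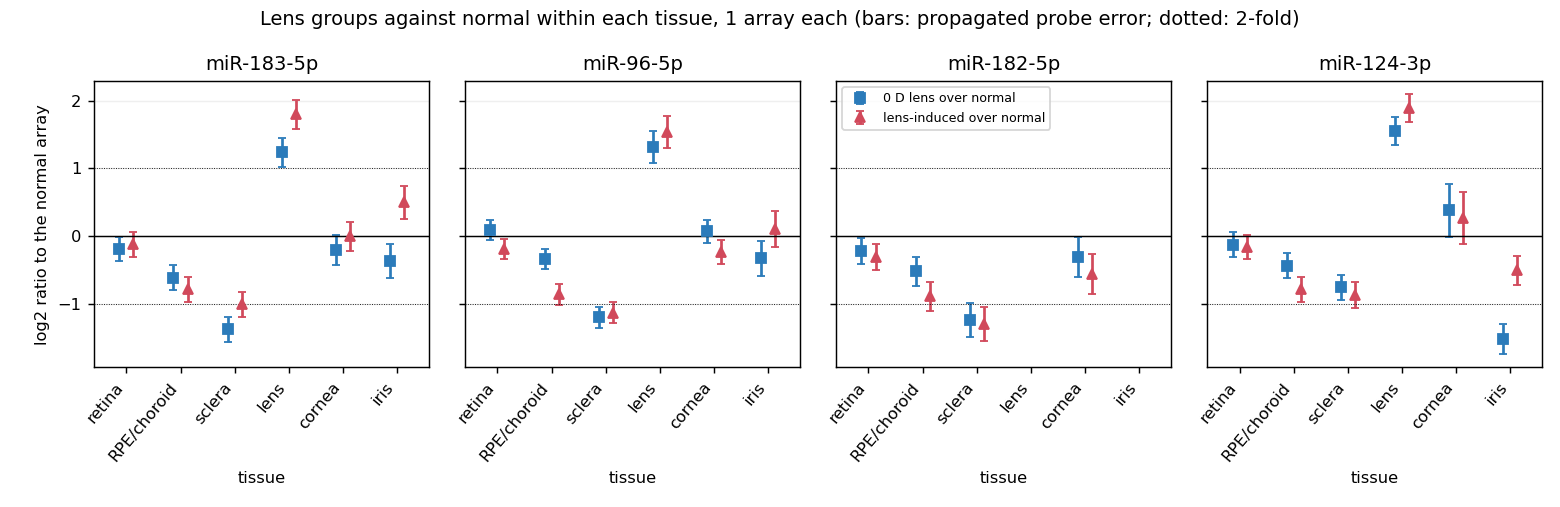
Log2 ratio of the 0 D and the lens-induced array to the normal array of the same tissue for the 3 miRNAs and miR-124-3p, with propagated probe errors as bars, 1 array per point and dotted lines at 2-fold. Points past 2-fold for the 3 miRNAs lie in the lens (above) and the sclera (below), and miR-124-3p is also past 2-fold in the lens, and in the iris with the 0 D lens.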

How the data were processed

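Total RNA of each tissue was labeled with cyanine 3 and hybridized to a one-color array (24 arrays, 8 tissues by 3 lens groups, 1 array each). Scans were digitized by the authors in Feature Extraction 10.7.1.1, and the deposited scanner files give an intensity per probe, the total probe signal after background subtraction, with its error. A deposited table of all samples was not used, because the names of its 24 value columns can be read for more than 1 lens group.

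Probes above 3 errors were summed per miRNA (30 spots per miRNA, 2 probes per member). Arrays were scaled to an equal 75th percentile of the 79 miRNAs that every array detected (log2 factors of −1.01 to 1.65). For tests, scaled signals under 9.93, the highest over arrays of the lowest detected signal, and undetected values were set to this floor, log2 was taken, and miRNAs detected on at least 3 arrays of the fit were kept. Differences were tested with limma 3.58.1 (lmFit and eBayes, two-sided, Benjamini-Hochberg at 0.05 over all miRNAs tested) in R 4.3.3. Tissue and lens group were the terms. The fits were also run on simulated data without floored or undetected values, so this check does not cover members at the floor. Ratios of members were tested by exact permutation within lens groups. The number of arrays limits the precision. The miRNAs named were the members, their other arms, 2 light-following miRNAs, for each member the 3 most alike by Pearson correlation, and marker lists for neurons, pigment cells, surface epithelium, striated muscle, mesenchyme, blood cells and oligodendrocytes. Members and lists were chosen with earlier results of these data known. Alternatives changed the scaling, background correction, floor, filter, probe summary, variance model and arrays. Sequences, coordinates and neighboring genes were taken from RefSeq tables of the GRCm38.p6 build. Tables and permutations were computed in pandas 2.3.3 and numpy 2.4.6 under Python 3.11.15, and plots drawn in matplotlib 3.10.9.

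The lists not given in the results were read on the scaled signals as sums over each list. Striated muscle miRNAs summed to 686 to 757 in the lens, 153 to 330.3 in the sclera and 12.7 to 14.6 in retina. Mesenchymal miRNAs summed to 1248 to 1484 in the sclera, 603 to 663 in the RPE/choroid and 38.1 to 43.4 in retina, and were not detected in the lens. Blood cell miRNAs summed to 87.3 to 118 in the RPE/choroid and 11.0 to 13.3 in retina, and oligodendrocyte miRNAs to 678 to 992 in the LGN, 241 to 372 in the SCN and 58.9 to 78.1 in retina. Pigment cell miRNAs summed to 1067 to 1211 in the iris and 670 to 858 in retina.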

Additional observations from a re-analysis of the deposited data

Results flagged for a closer look

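mmu-miR-183-5p and mmu-miR-96-5p stood out because both lens groups were above the normal array in 1 ocular tissue, the lens, and below it in another, the sclera. For mmu-miR-183-5p, the log2 ratios to the normal array in the lens were 1.24 (0 D) and 1.80 (lens-induced), and in the sclera −1.38 and −1.01. For mmu-miR-96-5p, they were 1.32 and 1.54 in the lens and −1.21 and −1.13 in the sclera. The difference between the tissues was not tested, since each tissue and lens group has 1 array, and both ratios of a tissue share its normal array. In 9 groups of ratios (3 members in 3 comparisons, over 4 or 6 tissues), 0 ratios lay outside Dixon's 95% limit for a single far value, which chance would pass in about 1 of 20 groups.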

How the results depend on the processing

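The higher level of each member in retina than in each other tissue kept its direction and its call in all 252 alternative values run, with adjusted p up to 0.0175. The size of the differences depended on the processing. Over all tissues and settings the log2 differences ran from 2.66 to 15.8, while the lowest in the main fit was 3.80. The values of mmu-miR-182-5p against lens, iris, SCN and LGN and of the other members against SCN and LGN rest on undetected arrays. The number of miRNAs called is more open. With normexp at an offset of 50 it was 323 against cornea, 329 against lens and 261 against SCN, in place of 176, 184 and 172. Between SCN and LGN it was 274 in place of 122. With a floor at each array's lowest detected signal it was 297 against cornea, 311 against lens and 305 (for 199) against sclera. Among the miRNAs detected on all arrays, it was 69 for cornea, 64 for iris (157 otherwise), 72 for lens, 71 for RPE/choroid (163 otherwise), 74 for sclera, 60 for SCN, 55 for LGN (155 otherwise) and 33 between SCN and LGN. Leaving out each lens group gave 153 to 164, 121 to 147, 167 to 172, 146 to 161, 169 to 188, 155 to 165 and 131 to 149 calls for retina against cornea, iris, lens, RPE/choroid, sclera, SCN and LGN, and 102 to 117 between SCN and LGN.

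Between lens-induced and normal arrays, normexp gave 6 calls in place of 0. Between 0 D and normal arrays, quantile normalization gave 2, the brightest probe 7 and all 8 tissues 2, in place of 0. Between lens-induced and 0 D arrays the 2 calls became 0 with quantile normalization, with undetected values at 0.1 and with the floor of each array, 6 with normexp, 13 with the brightest probe, and 1 with limma-trend, with all 8 tissues and with miRNAs detected on all arrays, and 0 to 3 when a tissue was left out (0 without cornea, iris, retina or sclera, and 1 without the lens). No member was called between lens groups under any alternative, with adjusted p of 0.130 or higher, but small differences changed sign. For lens-induced against normal, mmu-miR-183-5p had −0.10 with normexp and −0.29 to 0.28 when a tissue was left out, with the lowest value without the lens, and mmu-miR-96-5p −0.47 to 0.070. For 0 D against normal, mmu-miR-96-5p had 0.059 without scaling, 0.0012 with the brightest probe and −0.34 to 0.16 when a tissue was left out. For lens-induced against 0 D, mmu-miR-96-5p had −0.17 to 0.028 when a tissue was left out, and mmu-miR-182-5p 0.058 with normexp and 0.087 with the floor of each array. The difference of mmu-miR-182-5p between lens-induced and normal arrays ran from −0.61 to −0.35 when a tissue was left out.

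In the retina, the ratios of mmu-miR-182-5p to mmu-miR-183-5p and to mmu-miR-96-5p turned to 0.17 and 0.32 with quantile normalization, and no alternative brought a retina ratio under an exact p of 0.0625. The cornea ratios kept their direction in all 18 alternatives. With 1 lens group left out the 2 ratios of mmu-miR-182-5p ran from 2.49 to 2.68 and from 1.33 to 1.44 with exact p = 0.0625, the smallest that 2 lens groups and 4 tissues allow. Of the 128 alternative values of the ratios within a tissue, 98 moved by less than their error, 30 by more and 0 past 2-fold changed sign. The cause of these changes was not tested.

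The 75th percentile over all miRNAs was not run, since it was at or under 0 on some arrays (−0.275 to 3.20), nor was the table of all samples, whose columns could not be assigned, nor a block for the slide, since each slide holds 1 lens group. No paired analysis was possible because the arrays carry no replicate numbers that pair them beyond the lens group, which is a term of the fits. Signals near background limit mmu-miR-182-5p in lens and iris and all members in SCN and LGN.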
